A study of Mus with 4 samples.

Results

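The levels of 10 genes that decide what a cell does with pyruvate were followed in PPS-ICBR cells, a mouse prostate cancer line of the C57Bl6 strain, after an overnight culture with the histone deacetylase inhibitor vorinostat or with its solvent. They are Pcx, Pdk1, Pdk2, Pdk3, Pdk4, Pdha1, Mpc1, Mpc2, Ldha and Ldhb. They were chosen by name with their vorinostat-against-DMSO values on these arrays already known, so their levels and differences are given as a description, with no test. Every probe set that the platform annotation ties to 1 of these symbols was taken, which gave 16 of the 45037 non-control probe sets and 9 of the 10 genes. Mpc2 is not named in that annotation and has no value here. For Pcx, 4 further control probe sets on the array were read.

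Each group holds 2 arrays. The vorinostat cells received 5 µM of the drug dissolved in DMSO, and the DMSO cells received 5 µL of DMSO in 10 mL of medium. Both were plated at 60% confluency in DMEM with 10% fetal bovine serum. The labels give no genotype, name a single cell line and leave unsaid whether replicate arrays stem from separate cultures, so the spread between arrays may be technical.

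Pyruvate, the end product of glycolysis, stands at a branch point. Lactate dehydrogenase turns it into lactate in the cytosol, and the mitochondrial pyruvate carrier takes it into mitochondria, where the pyruvate dehydrogenase complex makes acetyl-CoA from it and pyruvate carboxylase makes oxaloacetate. Pyruvate dehydrogenase kinases phosphorylate the complex and switch it off, and dedicated phosphatases switch it on again. Many tumour cells make lactate even where oxygen is at hand.

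With vorinostat, transcripts of pyruvate carboxylase, of the carrier subunit Mpc1, of the kinase Pdk3 and of the lactate dehydrogenase subunit Ldhb were higher, and those of Ldha and of the dehydrogenase subunit Pdha1 were lower. Pcx differed most, at 4.58-fold. Pdk4 lay near background in both groups, and the probe sets of Pdk1 did not give a common direction. Values are the deposited log2 expression values, differences are vorinostat minus DMSO with the standard error (SE) of a linear model fitted to all non-control probe sets with limma, and n is 2 arrays per group throughout. The RNA is of bulk cultures, in which fewer cells with a transcript and less of it per cell cannot be told apart.

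Of the 16 probe sets, 9 were higher and 3 lower past an adjusted p of 0.05 in that fit, and 4 did not pass. Over all 45037 probe sets, 16.5% were higher and 15.7% lower by the same rule. Both vorinostat arrays lay above both DMSO arrays at 9 of the 16 and below them at 5, against 33.1% and 29.7% of all probe sets. Nothing is read from these counts, because the genes were picked with the same contrast in view. The largest gap between arrays of a group at any of the 16 was 0.33 on the log2 scale.

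**Figure D1:**
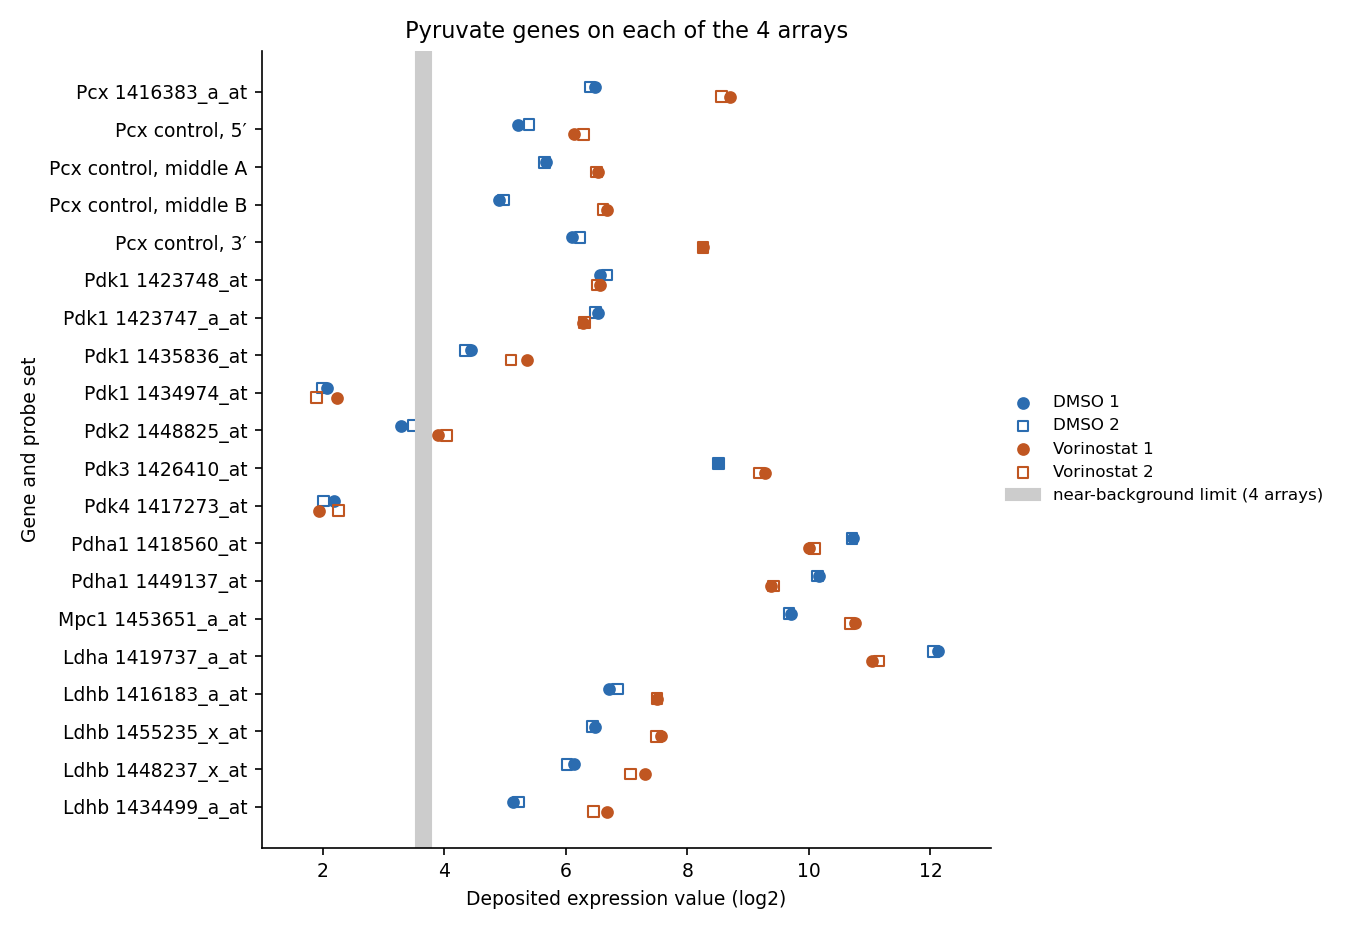
Deposited log2 value (horizontal axis) of each member probe set and of the 4 Pcx control probe sets (rows) on each array, with DMSO in blue, vorinostat in orange, filled circles for replicate 1, open squares for replicate 2, and the range of the near-background limits of the 4 arrays in grey. The Pcx, Mpc1, Pdk3 and Ldhb points of vorinostat lie to the right of those of DMSO, the Ldha and Pdha1 points lie to the left, and Pdk4 stays below the limit on all 4 arrays.

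The whole arrays differed between the groups at many genes. By the fit, 20.9% of 18193 genes, each read at its brightest probe set, were higher and 18.9% lower. The deposited values were quantile-normalised, so a change common to all transcripts is not visible in them. Scaling the arrays on 6 reference genes, which had a mean difference of -0.43, raised every difference by that amount and took the median gene from 0.03 to 0.46. The share of called probe sets that were higher then went from 51.3% to 89.8%, and it was 43.8% with arrays centred on their medians. That reference rests on Gusb (-1.42) and Polr2a (-0.75), and the other 4 genes had a mean of -0.10. Of 8 measured markers of prostate luminal epithelium, 2 rose and 1 fell, and their summed log2 level was 63.2 to 63.3 in DMSO and 63.0 to 63.5 with vorinostat. The luminal keratin Krt8 fell from a mean of 12.3 to 11.3, Krt19 rose from 8.17 to 9.27, the prostate homeobox gene Hoxb13 rose from 8.24 to 8.78, and the secretory gene Pbsn was near background in both groups. Of 7 fibroblast markers, 2 rose and 2 fell, and their summed log2 level was 57.1 to 57.5 in DMSO and 55.2 to 56.9 with vorinostat. The brightest of them, Col1a2, had a mean of 12.7 in DMSO and 12.5 with vorinostat. Pdgfra differed by 1.54 and Dcn by 1.26, and Pdgfrb by -2.49 and Col3a1 by -0.89. Of 7 leukocyte markers, Cd3e rose and Cd14 fell, Ptprc, Adgre1 and Itgam were near background, and the summed level was 28.7 to 29.1 and 27.4 to 27.7. The part of these markers in the differences below was not tested.

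Pcx encodes pyruvate carboxylase, the biotin enzyme that makes oxaloacetate and so refills the citric acid cycle. Its probe set 1416383_a_at read 6.48 and 6.40 on the DMSO arrays and 8.70 and 8.57 on the vorinostat arrays. The groups did not overlap, and the gap between them was many times the distance between arrays of a group. The difference was 2.20 (SE 0.09). It lay between 2.13 and 2.26 when any single array was left out.

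The array carries 4 more probe sets for the same transcript among its controls, placed at its 5′ end, its 3′ end and at 2 points between, which serve to judge how far labelled material reaches toward the 5′ end. The 3′ control read 6.10 and 6.24 in DMSO and 8.25 and 8.26 with vorinostat. The 5′ control read 5.21 and 5.40 in DMSO and 6.14 and 6.29 with vorinostat. Both were higher on every vorinostat array than on any DMSO array, and so were the middle ones. The middle probe set A read 5.68 and 5.65 in DMSO and 6.54 and 6.51 with vorinostat. The middle probe set B read 4.90 and 4.98 in DMSO and 6.68 and 6.62 with vorinostat. When the controls were put into the fit, the differences were 0.91 (SE 0.11) at the 5′ end, 0.86 (SE 0.08) and 1.71 (SE 0.08) at the middle sets A and B, and 2.09 (SE 0.09) at the 3′ end. All 5 Pcx probe sets thus pointed the same way, but the size of the difference ranged from 0.86 to 2.20 along the transcript.

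The 3′ minus 5′ difference of the Pcx controls, taken within each array, was 0.88 and 0.84 in DMSO and 2.11 and 1.96 with vorinostat. It was wider by 1.18 on the vorinostat arrays, and the groups did not overlap. The same quantity can be read for 3 other genes that have such controls. For Tfrc, the transferrin receptor, it was 1.98 and 2.19 in DMSO and 2.02 and 2.01 with vorinostat. For Gapdh it was -0.218 and -0.215 in DMSO and -0.25 and -0.23 with vorinostat, and for Actb it lay between -0.0043 and 0.044 on all 4 arrays. The shifts in these 3 genes were -0.07, -0.03 and -0.02. Tfrc itself was lower with vorinostat by about the same amount at both ends, with differences of -1.11 at the 3′ and -1.04 at the 5′ probe set. The widening at Pcx was therefore not shared by the other 3 control genes on the same arrays, and its cause was not tested.

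**Figure D2:**
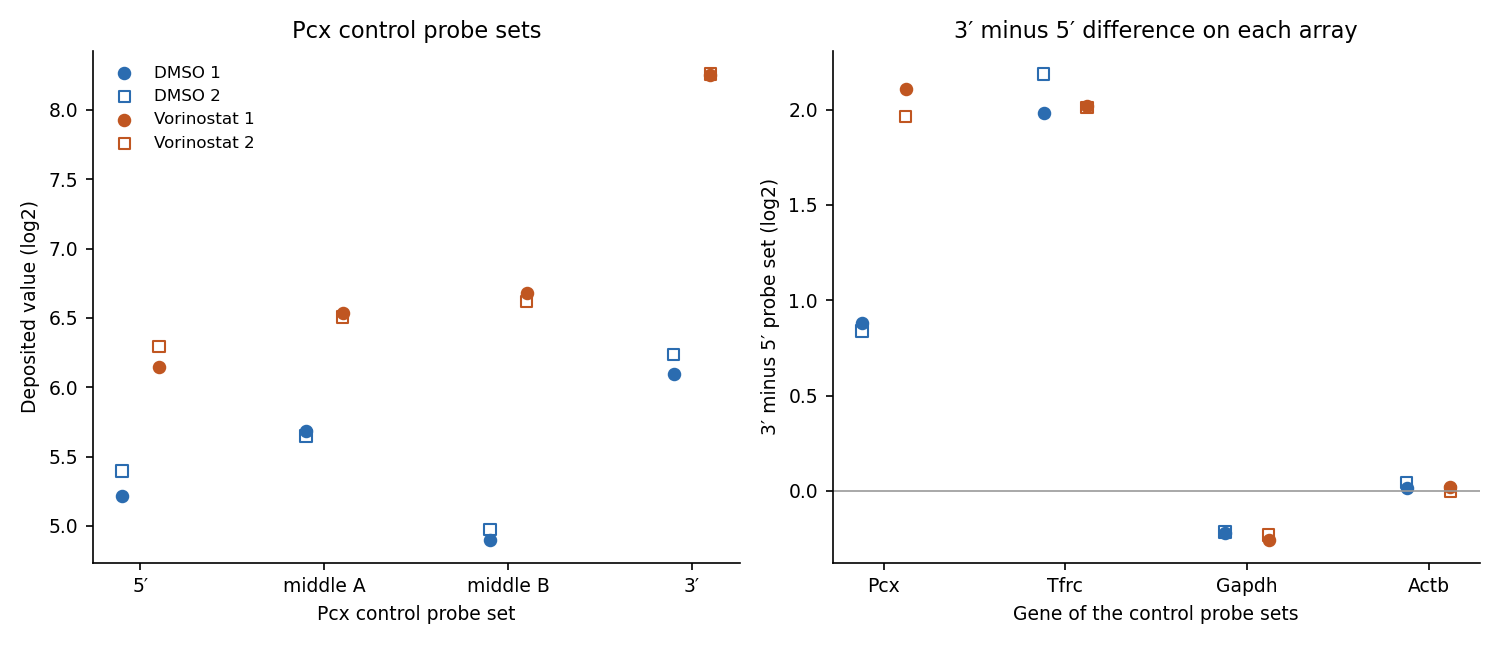
Left, deposited log2 value of the 4 Pcx control probe sets on each array, and right, the 3′ minus 5′ difference (log2) within each array for the control probe sets of 4 genes, with DMSO in blue, vorinostat in orange, filled circles for replicate 1 and open squares for replicate 2. The Pcx difference is 0.84 to 0.88 in DMSO and 1.96 to 2.11 with vorinostat, while the Tfrc, Gapdh and Actb points of the groups lie close together.

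Mpc1 encodes a subunit of the carrier that moves pyruvate across the inner mitochondrial membrane, where it works in a complex with the product of Mpc2. Its probe set 1453651_a_at read 9.70 and 9.67 in DMSO and 10.75 and 10.68 with vorinostat. The vorinostat arrays lay above both DMSO arrays. The difference was 1.03 (SE 0.08), or 2.04-fold. Its partner could not be set beside it.

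Pdha1 encodes the catalytic alpha subunit of pyruvate dehydrogenase, which carries the serines that the kinases phosphorylate. Its 2 probe sets gave close differences. The first, 1418560_at, read 10.73 and 10.71 in DMSO and 10.00 and 10.09 with vorinostat. The other, 1449137_at, read 10.16 and 10.14 in DMSO and 9.37 and 9.42 with vorinostat. Both vorinostat arrays were below both DMSO arrays at each of them. The differences were -0.68 (SE 0.08) and -0.75 (SE 0.08), a level 1.60-fold and 1.68-fold lower.

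The 4 pyruvate dehydrogenase kinases, which share the same substrate and differ in the tissues and conditions that induce them, did not move as a block. Pdk3 at 1426410_at read 8.50 and 8.51 in DMSO and 9.29 and 9.19 with vorinostat. Its difference was 0.73 (SE 0.08), and the groups did not overlap. Pdk2 at 1448825_at read 3.29 and 3.49 in DMSO, which is near background, and 3.90 and 4.04 with vorinostat, just above the limit. A probe set is called near background in a group where each of its arrays lies within 1 log2 unit of the brightest probe set for the bacterial Trpn transcript. The Pdk2 difference was 0.58 (SE 0.11) as deposited, of which 0.33, or 1.25-fold, lies above that limit, so it is at least that large. With the 20th percentile of each array as the limit, Pdk2 was not near background in either group. The Pdk2 difference was 0.48, 0.68, 0.65 and 0.51 without DMSO 1, DMSO 2, Vorinostat 1 and Vorinostat 2.

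Pdk4, a kinase known to be induced by fasting and glucocorticoids in other tissues, read 2.20 and 2.02 in DMSO and 1.94 and 2.26 with vorinostat at 1417273_at. All 4 values were near background and the groups overlapped, so no change can be read at this probe set.

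Pdk1, the kinase best known as a hypoxia-inducible gene, had 4 probe sets that disagreed. The brightest, 1423748_at, read 6.57 and 6.68 in DMSO and 6.56 and 6.51 with vorinostat, a difference of -0.09 (SE 0.08). The probe set 1423747_a_at read 6.53 and 6.49 in DMSO and 6.29 and 6.31 with vorinostat, a difference of -0.21 (SE 0.08). At both of these the vorinostat arrays were the lower ones, by little. The dimmer 1435836_at went the other way, from 4.44 and 4.35 in DMSO to 5.36 and 5.10 with vorinostat, a difference of 0.83 (SE 0.12). Without DMSO 1, DMSO 2, Vorinostat 1 and Vorinostat 2 it was 0.88, 0.79, 0.70 and 0.97. The last, 1434974_at, read between 1.90 and 2.23 on all 4 arrays, which is near background. The mean of the 4 probe sets differed by 0.14, so the direction given for Pdk1 depends on which probe set is read.

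Ldha and Ldhb encode the subunits of the lactate dehydrogenase tetramer. Enzyme rich in the A subunit is typical of glycolytic tissue such as skeletal muscle, and enzyme rich in the B subunit of oxidative tissue such as heart. Ldha at its single probe set 1419737_a_at read 12.12 and 12.05 in DMSO and 11.04 and 11.15 with vorinostat. The vorinostat arrays lay below both DMSO arrays, and the difference was -0.98 (SE 0.09), a level 1.98-fold lower. Ldhb had 4 probe sets, and at all of them the vorinostat arrays lay above the DMSO arrays. At the brightest, 1416183_a_at, the values were 6.71 and 6.85 in DMSO and 7.50 on both vorinostat arrays, a difference of 0.72 (SE 0.09). At the dimmest, 1434499_a_at, they were 5.12 and 5.23 in DMSO and 6.67 and 6.45 with vorinostat, a difference of 1.39 (SE 0.11). The probe sets 1455235_x_at and 1448237_x_at, of a type in which some probes can match other transcripts, differed by 1.07 (SE 0.08) and 1.10 (SE 0.11). The Ldhb differences thus ran from 1.65-fold to 2.62-fold with the probe set.

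Differences between 2 genes read on the same array do not depend on scaling that adds 1 constant to all values of an array. Quantile normalization can still change them. Relative to its DMSO mean, Ldhb minus Ldha stood at -0.11 and 0.11 on the DMSO arrays and at 1.76 and 1.65 on the vorinostat arrays, so that the 2 subunit transcripts moved apart by 1.70 on the log2 scale. That is read at the brightest Ldhb probe set, which differed least, and the other 3 gave 2.06 to 2.37. Pcx minus Pdha1, the enzymes of the 2 mitochondrial routes, stood at 0.03 and -0.03 in DMSO and at 2.98 and 2.76 with vorinostat. Pdk3 minus Pdha1, a kinase against its substrate, stood at -0.01 and 0.01 and at 1.50 and 1.31. In each of these pairs the vorinostat arrays lay apart from the DMSO arrays. They are fixed by the differences above and add no independent support.

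Under scaling on the reference genes, Ldha stayed lower at -0.55 and the Pdha1 probe sets at -0.25 and -0.32. Pcx, Mpc1, Pdk3, Pdk2 and the 4 Ldhb probe sets stayed higher. The 2 brighter Pdk1 probe sets turned to 0.34 and 0.22, and Pdk4 and the dimmest Pdk1 probe set, both near background, were at 0.43 and 0.46, close to the shift of the median gene.

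**Figure D3:**
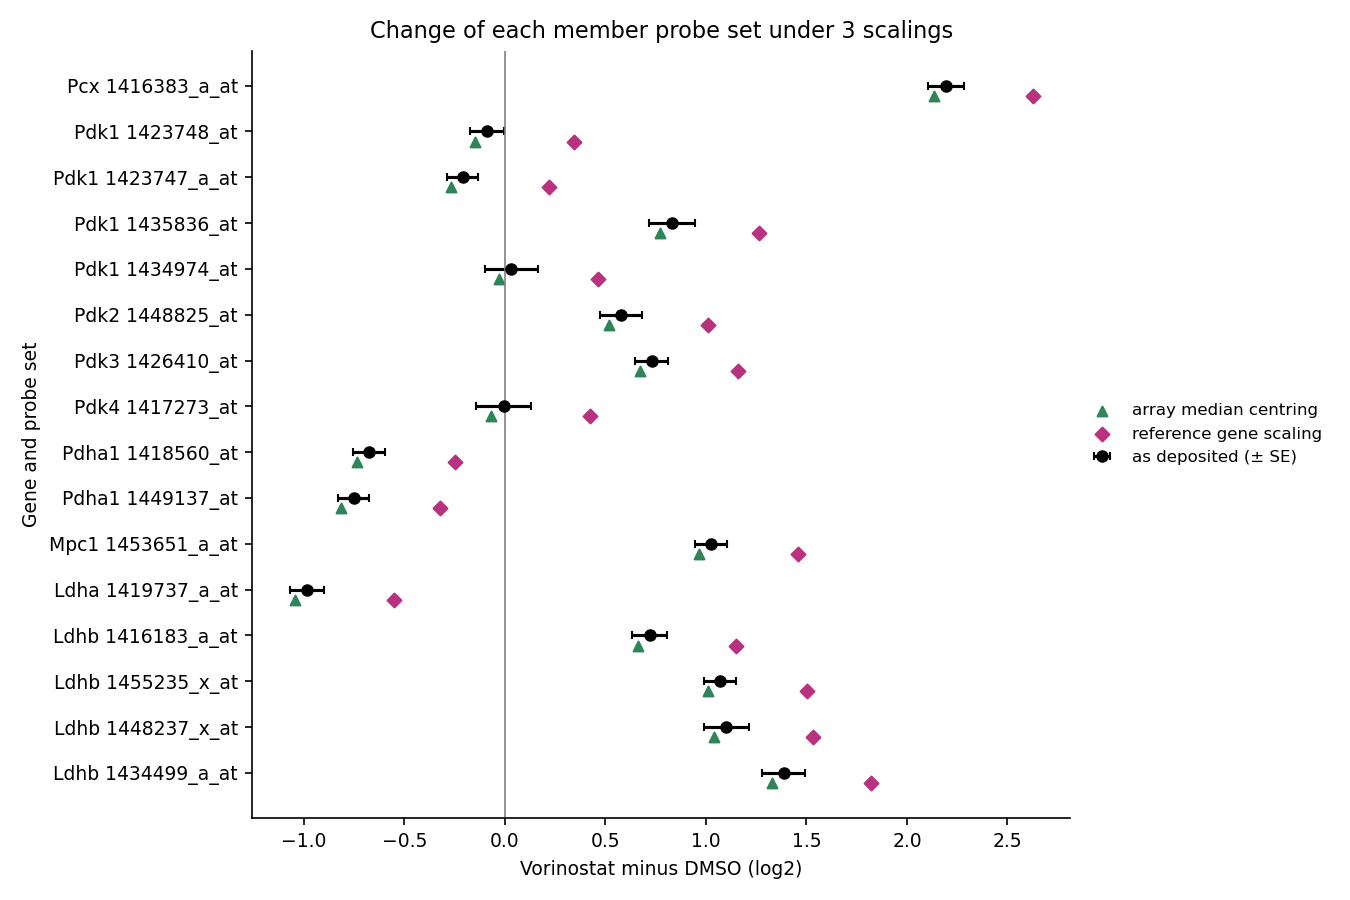
Vorinostat minus DMSO on the log2 scale (horizontal axis) for each of the 16 member probe sets (rows), as deposited with its SE (black), with arrays centred on their medians (green) and with arrays scaled on the reference genes (magenta). Pcx, at 2.20 as deposited, lies farthest to the right and Ldha, at -0.98, farthest to the left, and the brighter Pdk1 probe sets cross 0 between scalings.

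The other genes of the pathway were read from 6 lists with 83 measured genes, none of them a member. Of these, 25 rose and 15 fell past an adjusted p of 0.05 (limma, Benjamini-Hochberg over all 45037 probe sets), beside 20.9% and 18.9% of all genes, and 43 did not pass. Their median difference was 0.05, against 0.03 over all genes. Without DMSO 1, DMSO 2, Vorinostat 1 and Vorinostat 2 the genes that rose numbered 15, 15, 13 and 17 and those that fell 7, 9, 7 and 9. In such fits 1 group has a single array, which is assumed to vary like those of the other group. Fewer probe sets passed over the whole table in them too. With reference gene scaling 62 were higher and 7 lower. The same scaling made 31172 of all 45037 probe sets higher and 3524 lower. Counts under it, here and in the list paragraphs, are therefore not read as a feature of these genes. Every difference named in the list paragraphs below comes from the limma fit to all arrays as deposited, unless another setting is named. The lists were chosen with earlier results of these data known. Genes in them are named as the 2 largest rises and 2 largest falls on these arrays, or after their values were seen. Their counts and adjusted p values therefore describe these arrays and are not independent tests.

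Of 14 genes for the rest of the pyruvate dehydrogenase complex, its phosphatases and the lipoic acid cofactor, 2 rose, 4 fell and 8 did not pass, with a median of -0.20. Pdp1, the catalytic subunit of a phosphatase that reactivates the complex, read 6.26 and 6.05 in DMSO and 7.28 and 6.85 with vorinostat, a rise of 0.91 (SE 0.17, adjusted p = 0.0112). A second probe set of Pdp1 rose by 1.77. Pdhb, the beta partner of Pdha1, rose by 0.41 (SE 0.09, adjusted p = 0.0241) while Pdha1 was lower. A second Pdhb probe set was at 0.19 with overlapping arrays, and the mean of the pair was at 0.30 and did not pass (limma adjusted p = 0.0612). Of further subunits, named after their values were seen, Dlat fell by 0.40 (SE 0.09, adjusted p = 0.0241). Its other probe sets were at -0.41 and -0.62 and passed. Dld, at -0.23 with a second probe set at 0.28, and Pdhx, at -0.26, did not pass. Lipt2, which starts the attachment of lipoic acid, fell by 0.83 (SE 0.09, adjusted p = 0.00158). Bola3, an iron-sulfur cluster factor needed for lipoic acid synthesis, fell by 0.60 (SE 0.09, adjusted p = 0.0052). The other Bola3 probe sets were at -0.31 and -0.33 and did not pass. The first was near background in both groups and the second with vorinostat. The limma calls numbered 0, 0, 0 and 1 rises (2 in each case at an unadjusted p under 0.05) and 1, 2, 2 and 2 falls without DMSO 1, DMSO 2, Vorinostat 1 and Vorinostat 2. Pdhb did not pass in any of these (0.42, 0.41, 0.32 and 0.50), Pdp1 passed only without Vorinostat 2, being at 1.01, 0.81 and 0.69 without DMSO 1, DMSO 2 and Vorinostat 1, and Bola3 did not pass without DMSO 1 (-0.56) or under reference gene scaling (-0.16), where 7 of the list were higher and 1 lower. With an intensity trend in limma, or over probe sets above the median level alone, 7 genes of the list were lower.

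Of 12 measured genes for pyruvate and lactate transport and the remaining lactate dehydrogenases, 3 rose, 1 fell and 8 did not pass, with a median of 0.01. Ldhd, the mitochondrial D-lactate dehydrogenase, read 5.09 and 5.17 in DMSO and 6.03 and 5.99 with vorinostat, a rise of 0.88 (SE 0.08, adjusted p = 0.00109). Emb, an accessory chain of monocarboxylate transporters, rose by 0.77 (SE 0.09, adjusted p = 0.0025), and by 0.48 as the mean of its 3 probe sets. Its second probe set, near background in DMSO, rose by 0.87, and the third, near background in both groups, was at -0.20. Slc16a6, a member of the monocarboxylate transporter family, fell by 0.74 (SE 0.10, adjusted p = 0.00409). Named after their values were seen, the lactate and pyruvate transporters Slc16a1 (-0.19, SE 0.08, adjusted p = 0.139) and Slc16a3 (0.41, SE 0.17, adjusted p = 0.134) did not pass, and their accessory chain Bsg rose by 0.70 (SE 0.08, adjusted p = 0.00197). Without DMSO 1, DMSO 2, Vorinostat 1 and Vorinostat 2, 3, 4, 3 and 3 genes rose and 1, 1, 0 and 0 fell by limma (2, 1, 2 and 1 falls at an unadjusted p under 0.05), Slc16a6 being at -0.76 and -0.73 without Vorinostat 1 and Vorinostat 2. Reference gene scaling gave 10 higher and 1 lower.

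Of 17 measured genes that supply pyruvate or carry cytosolic NADH to mitochondria, 8 rose, 2 fell and 7 did not pass, with a median of 0.26. Gpt2, the mitochondrial alanine transaminase that interconverts alanine and pyruvate, read 6.64 and 6.71 in DMSO and 7.96 and 7.80 with vorinostat, a rise of 1.20 (SE 0.09, adjusted p = 0.000669). Its 3 other probe sets also rose. Slc25a11, the oxoglutarate carrier of the malate-aspartate shuttle, rose by 1.05 (SE 0.09, adjusted p = 0.000786), and Me2, a mitochondrial malic enzyme that makes pyruvate from malate, fell by 0.71 (SE 0.09, adjusted p = 0.00315). A second Me2 probe set fell by 0.54, the others were at -0.11 and -0.05 with overlapping arrays, and the mean of all 4 was -0.35. Slc25a13, an aspartate-glutamate carrier of the same shuttle, fell by 0.59 (SE 0.08, adjusted p = 0.00445), but was at -0.16 and did not pass under reference gene scaling. Pkm, the pyruvate kinase of most dividing cells, was named after its value was seen and rose by 0.29 (SE 0.08, adjusted p = 0.0453). Without DMSO 1, DMSO 2, Vorinostat 1 and Vorinostat 2 the rises numbered 5, 3, 3 and 4 (8, 7, 9 and 7 at an unadjusted p under 0.05, against 9 with all arrays), and the falls 2 in each case. Reference gene scaling gave 15 higher and 1 lower.

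Of 10 measured genes in a list on the use of oxaloacetate and citrate and on the later steps of glucose synthesis (Fbp1, Fbp2, G6pc and G6pc3), 3 rose, 2 fell and 5 did not pass, with a median of 0.15. Slc25a1, which exports citrate from mitochondria, read 8.94 and 9.11 in DMSO and 9.71 and 9.72 with vorinostat, a rise of 0.69 (SE 0.09, adjusted p = 0.00377). Acly, which splits cytosolic citrate into acetyl-CoA and oxaloacetate, rose by 0.52 (SE 0.08, adjusted p = 0.00692), as did 2 of its 5 other probe sets. The rest were near background in both groups, and the mean of all its probe sets was 0.26. The remaining rise, named after its value was seen, was that of the fructose bisphosphatase gene Fbp2 (0.32, SE 0.08, adjusted p = 0.0286), from 3.81 and 3.80 to 4.14 and 4.11. These values lie little above the near-background limits, which were 3.54 and 3.75 in DMSO and 3.78 and 3.63 with vorinostat. Pck2, the mitochondrial enzyme that turns oxaloacetate into phosphoenolpyruvate, fell by 0.63 (SE 0.10, adjusted p = 0.00601), and its second probe set was at -0.39 and passed. The cytosolic aconitase Aco1 fell by 0.36 (SE 0.09, adjusted p = 0.0303) at its brightest probe set. Its other probe sets were at -0.57, which passed, and at -0.29, which did not. Without DMSO 1, DMSO 2, Vorinostat 1 and Vorinostat 2 the limma calls numbered 1, 1, 1 and 2 rises and 0, 0, 0 and 1 falls (2 falls in each case at an unadjusted p under 0.05). Acly (0.51, 0.54 and 0.47) and Pck2 (-0.66, -0.60 and -0.54) missed the threshold in the first 3 of these fits, and Aco1 (-0.35, -0.36, -0.43 and -0.29) in all 4. Under reference gene scaling Aco1 turned to 0.07, Pck2 was at -0.20 and did not pass, and 8 of the list were higher and 0 lower by limma, also 0 at an unadjusted p under 0.05.

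Pyruvate carboxylase needs biotin, as do the other carboxylases of the last metabolic list. Of its 9 genes 5 rose, 3 fell and 1 did not pass, with a median of 0.45. Over all genes 20.9% rose and 18.9% fell, with a median of 0.03. Mccc1, a subunit of methylcrotonyl-CoA carboxylase in leucine breakdown, read 8.13 and 7.97 in DMSO and 9.38 and 9.31 with vorinostat, a rise of 1.29 (SE 0.09, adjusted p = 0.000518). The partner subunits of propionyl-CoA carboxylase went opposite ways. Pcca rose by 0.86 (SE 0.08, adjusted p = 0.00134), from 7.54 and 7.52 to 8.45 and 8.33, and Pccb fell by 0.76 (SE 0.08, adjusted p = 0.00199), from 6.98 and 6.92 to 6.13 and 6.24. A second, dimmer probe set of Pcca was at 0.31 and did not pass. The biotin transporter Slc5a6 fell by 0.59 (SE 0.09, adjusted p = 0.00605), but did not pass without DMSO 1, Vorinostat 1 or Vorinostat 2 (-0.52, -0.62 and -0.56) or under reference gene scaling (-0.16). Without DMSO 1, DMSO 2, Vorinostat 1 and Vorinostat 2 the rises numbered 2, 3, 2 and 3 and the falls 1, 2, 1 and 1 (5, 5, 4 and 5 rises and 3 falls in each case at an unadjusted p under 0.05), and reference gene scaling gave 6 higher and 1 lower.

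Of 21 measured transcription factors that are known to act on genes of this pathway, 4 rose, 3 fell and 14 did not pass, with a median of 0.02. Mxi1, an antagonist of Myc, rose by 1.30 (SE 0.10, adjusted p = 0.000632), and Epas1, which encodes the hypoxia factor HIF-2 alpha, rose by 1.18 (SE 0.10, adjusted p = 0.000768). Foxm1, a factor of dividing cells, read 7.95 and 7.99 in DMSO and 5.18 and 5.27 with vorinostat, a fall of 2.75 (SE 0.08, adjusted p = 0.00016). Its other probe sets were at -1.66, -1.48 and -0.05, the last near background in both groups, and the mean of all was -1.49. Nrf1, a factor for nuclear genes of mitochondria, fell by 1.33 (SE 0.09, adjusted p = 0.000489), and the mean of its 4 probe sets was -0.87. The others were at -1.01, -1.13 and -0.0037, the last near background in both groups. Hif1a, named after its value was seen, was at -0.01 (SE 0.08, adjusted p = 0.918) at its brightest probe set. Its other probe sets did not give a common direction. That at 0.30, which passed, was near background in both groups, and those at 0.26 and -0.19 did not pass. The rises numbered 4 without each array, and the falls 2, 2, 2 and 3 without DMSO 1, DMSO 2, Vorinostat 1 and Vorinostat 2. Reference gene scaling gave 16 higher and 3 lower.

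**Figure D4:**
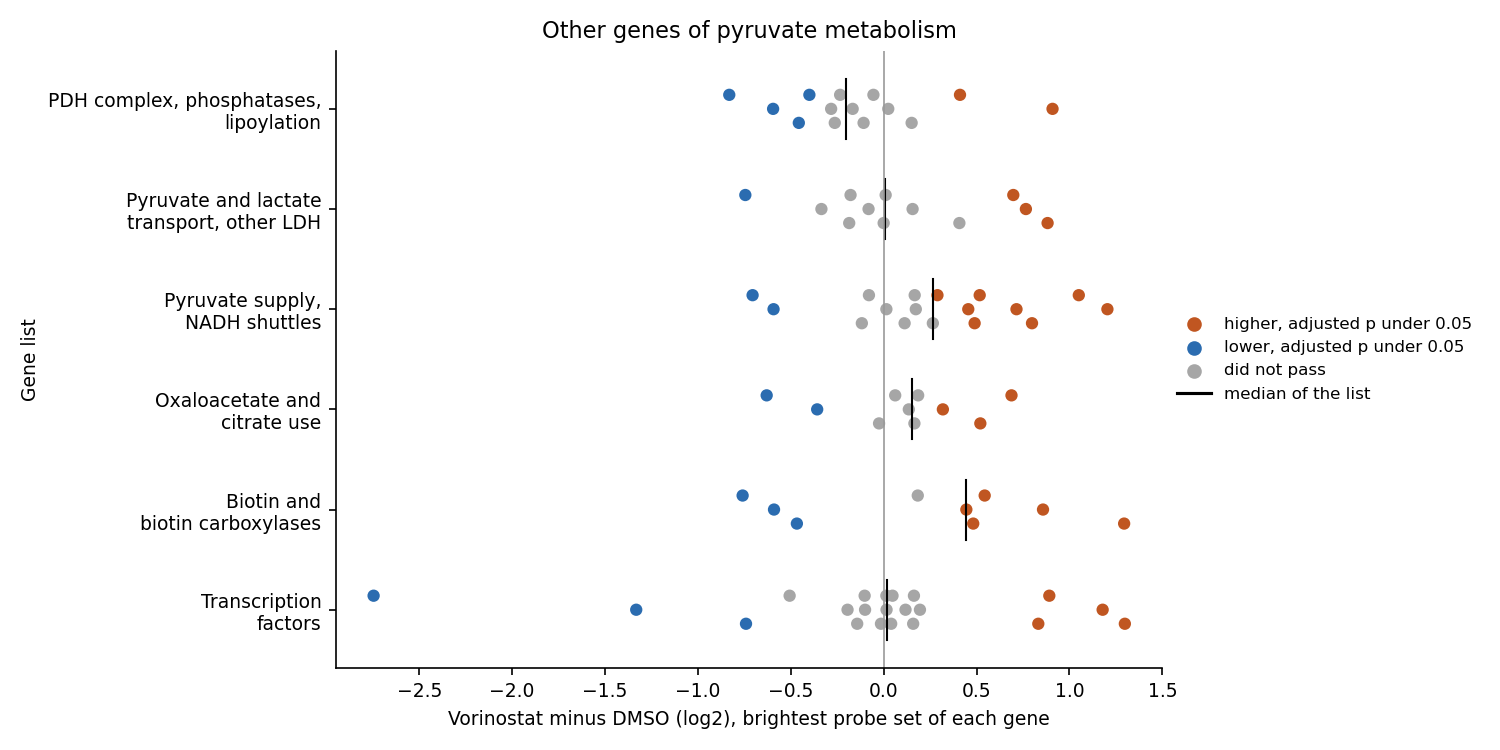
Vorinostat minus DMSO on the log2 scale (horizontal axis) at the brightest probe set of each of the 83 measured genes, by list (rows), in orange where the gene was higher and in blue where it was lower past an adjusted p of 0.05, in grey where it did not pass, with the list's median as a black line and points spread vertically only to keep them apart. The metabolic lists spread to both sides of 0, and Foxm1 at -2.75 lies farthest from it.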

How the data were processed

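The authors deposited log2 expression values for 4 Affymetrix arrays, 1 value per probe set and array. Per the submitters' processing notes they were made with RMA in the Transcriptome Analysis Console; versions and genome build are not given in the sources used here. RMA subtracts background, quantile-normalises the arrays and summarises the probes of each set. Array medians ran from 4.20 to 4.28. No depth applies to arrays; their number limits the precision.

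Of 45101 probe sets, 64 controls were left out of the fit. The platform annotation gave 1 symbol to 34945 of the rest, several to 932 and none to 9160; gene IDs of 34741 matched a RefSeq table (GRCm38.p6). The 2 groups were compared in R 4.3.3 with limma 3.58.1 (two-sided, eBayes with 3.26 prior degrees of freedom, Benjamini-Hochberg over 45037 probe sets, threshold 0.05), with no filter. The script was tested on simulated data. The members and lists were chosen with earlier results of these data known. Members were named at every probe set, and of each list the 2 largest rises and 2 largest falls. No sequences were used here.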

Additional observations from a re-analysis of the deposited data

How the results depend on the processing

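Leaving out single arrays gave 3778 to 4284 probe sets higher and 3900 to 4575 lower over the whole table, against 7440 and 7051 with all 4, and 13 to 17 pathway genes higher and 7 to 9 lower, against 25 and 15. It gave 7 to 8 of the 16 member probe sets higher and 3 lower, against 9 and 3. Scaling on the reference genes gave 31172 probe sets higher and 3524 lower, and 62 pathway genes higher and 7 lower. Under it the sign turned at Pdk1 1423748_at (0.34), Pdk1 1423747_a_at (0.22), Pdk4 (0.43) and Aco1 (0.074). Other sign changes were at Pdk1 1434974_at, with arrays centred on their medians (-0.027), without DMSO 2 (-0.01) and without Vorinostat 1 (-0.13, over a range to 0.20 with single arrays left out), at Pdk4 without DMSO 1 (0.08) and without Vorinostat 1 (0.15, over a range from -0.17), and at Pdk1 with the mean of its probe sets (0.14). With the replicate block 5856 probe sets were higher and 5704 lower, 20 and 13 pathway genes and 9 and 3 member probe sets, and of the named genes Pdhb (adjusted p = 0.0535) and Aco1 (adjusted p = 0.0625) no longer passed in limma. The labels do not say that a number marks a shared culture, so the block was not taken as a pairing. The deviations of same-numbered arrays had a correlation of -0.06 across probe sets. With 2 arrays per group this cannot tell whether same-numbered arrays share a culture. The pooled pathway and member counts moved by less than 1.5 times with median centring, a second quantile normalization, an intensity trend, probe sets above the median level or the controls in the fit. Within single lists, 7 genes of the dehydrogenase complex list fell with an intensity trend or above the median level (13 of 14 tested there), against 4. In the transport list 2 fell with median centring, the second normalization or the trend, against 1. In the biotin list 3 rose with the replicate block, against 5. Above the median level 3 of the biotin list rose too, but only 7 of its 9 genes were tested there. The block also left 1 rise of 2 in the complex list and 1 fall of 2 in the oxaloacetate list. The 20th percentile as the background limit changed 14 group calls among 103 probe sets.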

Other observations

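Genes next to the members were read after the members' values were seen, as the protein-coding gene on each side in the RefSeq table. Of 20 such neighbours 18 were measured, and 3 rose, 3 fell and 12 did not pass in limma, beside 20.9% and 18.9% of all genes. The span of Lrfn4, which encodes a synaptic adhesion protein, overlaps that of Pcx in that table, which gives no strand. Lrfn4 read 6.19 and 5.85 in DMSO and 4.61 and 4.53 with vorinostat and fell by 1.45 (SE 0.13, limma adjusted p = 0.00102), where Pcx was higher by 2.20. Gtf2h1, a subunit of the general transcription factor TFIIH that lies beside Ldha, fell by 0.71 (SE 0.08, limma adjusted p = 0.0018). Sft2d1, beside Mpc1, rose by 0.63 (SE 0.09, limma adjusted p = 0.00454). Beside Pdk3, Pcyt1b of phosphatidylcholine synthesis rose by 0.91 and the zinc finger gene Zfx fell by 0.79. Dcaf6, which lies beside the unmeasured Mpc2, rose by 0.99.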
